A study of Mus musculus with 12 samples.

Results

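The genes described here carry peptide presentation by MHC class II molecules. The list held 10 of them, and each was to be read from a probe set that the platform annotation assigns to 1 gene symbol. Of these, 9 were found that way, among 19937 genes with such a probe set, and each of the 9 had 1 probe set. The tenth, H2-DMb1, is covered only by a probe set that it shares with H2-DMb2, so that no value is given for it. Where a gene has several probe sets, the one used was chosen by its highest mean over the 12 tumours, which decided nothing for these genes. The list was drawn up with the spread of these genes between tumours and their co-variation already known, and both are therefore described without a test.

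The measurements come from tumours of TRAMP-C2Re3, a single mouse prostate carcinoma line. Each mouse received 50000 cells in the prostate and gave 1 tumour, which was harvested at 60 days. The hosts were C57BL6 mice of either of 2 genotypes, p62 KO (6 tumours) or wild type, written WT (6 tumours). The p62 protein, encoded by Sqstm1, is an autophagy receptor and signalling adaptor, and the injected cells carry their own copy of its gene, so that p62 is missing from host cells only. Total RNA of the whole tumour was amplified and hybridised to 1 array per tumour, and a level is the log2 intensity of a probe set, so that a difference of 1 is a doubling. Age and batch are not given in the sources used here.

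MHC class II molecules are heterodimers of an alpha and a beta chain that display peptides taken up from outside the cell to CD4 T cells. They are assembled in the endoplasmic reticulum around the invariant chain Cd74, which Ctss and other proteases trim in endosomes down to the fragment CLIP. H2-DM then exchanges CLIP for antigenic peptides, and H2-O restrains H2-DM. Dendritic cells, macrophages and B cells make these proteins constitutively or after activation, and interferon gamma switches them on in many other cells. Ciita is the coactivator on which nearly all of this transcription depends. It does not bind DNA itself and is recruited by RFX, CREB and NF-Y factors that sit on the X and Y boxes of the promoters.

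The promoters show what these genes share in sequence, and the stretch from the X to the Y box is therefore printed for each member in which it was found. RefSeq windows of 300 bases, from 250 before to 50 after a gene's start (GRCm38.p6), were on hand for 7 of the 10 listed genes, and not for H2-Ab1, Cd74 and Ciita. The search asked for an X half-site, GNAAC, followed after 25 to 28 bases by ATTGG, the Y box, which is CCAAT read on the other strand. The spacing was set after the sequences had been read. Capitals mark the X half-site and the Y box, with 10 bases on either side, 5′ to 3′ on the strand of the gene.
H2-Aa: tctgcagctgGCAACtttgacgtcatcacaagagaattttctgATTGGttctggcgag
H2-Eb1: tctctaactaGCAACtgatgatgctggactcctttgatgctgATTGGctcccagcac
H2-DMb1: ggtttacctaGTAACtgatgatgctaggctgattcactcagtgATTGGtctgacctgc
H2-Oa: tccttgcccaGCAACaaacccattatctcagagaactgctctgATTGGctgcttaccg
H2-Ob: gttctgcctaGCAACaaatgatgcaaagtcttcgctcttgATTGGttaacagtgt

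These stretches lie at chr17:34287857-34287914 on the minus strand for H2-Aa and, on the plus strand, at chr17:34305766-34305822 for H2-Eb1, chr17:34153087-34153144 for H2-DMb1, chr17:34092293-34092350 for H2-Oa and chr17:34238808-34238862 for H2-Ob. The X half-site starts 81, 91, 94, 76 and 87 bases before the start of H2-Aa, H2-Eb1, H2-DMb1, H2-Oa and H2-Ob. Searched on both strands, the spaced pair was in 0.712% of all 32851 promoter windows. It was absent from the windows of H2-DMa and Ctss, which says only that these letters at this spacing are not there. CCAAT alone, on either strand, is common: it was in 37.4% of all windows and in those of 6 of the 7 genes, all but Ctss. A stricter X box core, AGNNACNGATG on either strand, was in 0.968% of all windows and in those of H2-DMb1, H2-Eb1 and H2-Oa. In H2-DMb1 and H2-Eb1 it overlaps the marked half-site, and in H2-Oa it lies outside the printed stretch. In the RefSeq order of chromosome 17, H2-Ab1, H2-Aa and H2-Eb1 follow each other directly. The class I peptide processing genes Psmb9, Tap1, Psmb8 and Tap2 lie between H2-DMb1 and H2-Ob.

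The alpha chain gene H2-Aa varied over 4.27 on the log2 scale between tumours, or 19.3-fold. Its lowest, median and highest levels were 7.56, 8.54 and 10.56 in tumours of p62 KO hosts, against 6.49, 9.87 and 10.76 in tumours of WT hosts. Only 4 of the 19937 genes had a larger range. The groups overlapped over most of that span: KO hosts 1 and 4 (10.56 and 10.29) stood with WT hosts 1, 3 and 4 (10.76, 10.38 and 10.13) at the top, and KO host 3 (7.56) and WT host 2 (6.49) at the bottom. In whole-tumour RNA, fewer cells of a type and less RNA per cell cannot be told apart, and this holds for every level given here.

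H2-Ab1, the beta chain that pairs with H2-Aa, stood at 8.39, 9.13 and 10.56 (lowest, median, highest) in tumours of KO hosts, against 7.14, 10.22 and 10.74 in tumours of WT hosts. Its range was 3.60, or 12.1-fold. H2-Eb1, the beta chain of the second class II dimer, had levels of 7.20, 7.80 and 9.09 in KO hosts, against 6.69, 8.53 and 9.43 in WT hosts, a range of 2.74 or 6.69-fold. In C57BL6 mice its partner gene H2-Ea carries a deletion that stops transcription, so that the second dimer is not displayed. The level of H2-Ea was 4.25 to 4.96 over the 12 tumours, below or near the lower quartiles of the arrays (4.85 to 5.36), and it had r = -0.23 with the class II score defined below. Cd74, the invariant chain, stood at 7.18, 7.71 and 9.69 in KO hosts, against 6.00, 9.13 and 9.85 in WT hosts, and ranged over 3.85 or 14.4-fold.

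WT host 2 was the lowest tumour and WT host 1 the highest for each of these 4 genes. The range shrank without WT host 2, to 3.19 for H2-Aa, 2.35 for H2-Ab1, 2.23 for H2-Eb1 and 2.67 for Cd74. A range of at least 2 on the log2 scale, or 4-fold, was reached by these 4 of the 9 genes, and by 3.2% of all 28192 probe sets. As the list was drawn up with this spread known, nothing is read from that share. Averaged over the 4 genes, the tumours formed a graded series with its 2 widest gaps above WT host 2 (6.58 to 7.65) and between KO host 2 (8.54) and WT host 5 (9.28).

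**Figure D1:**
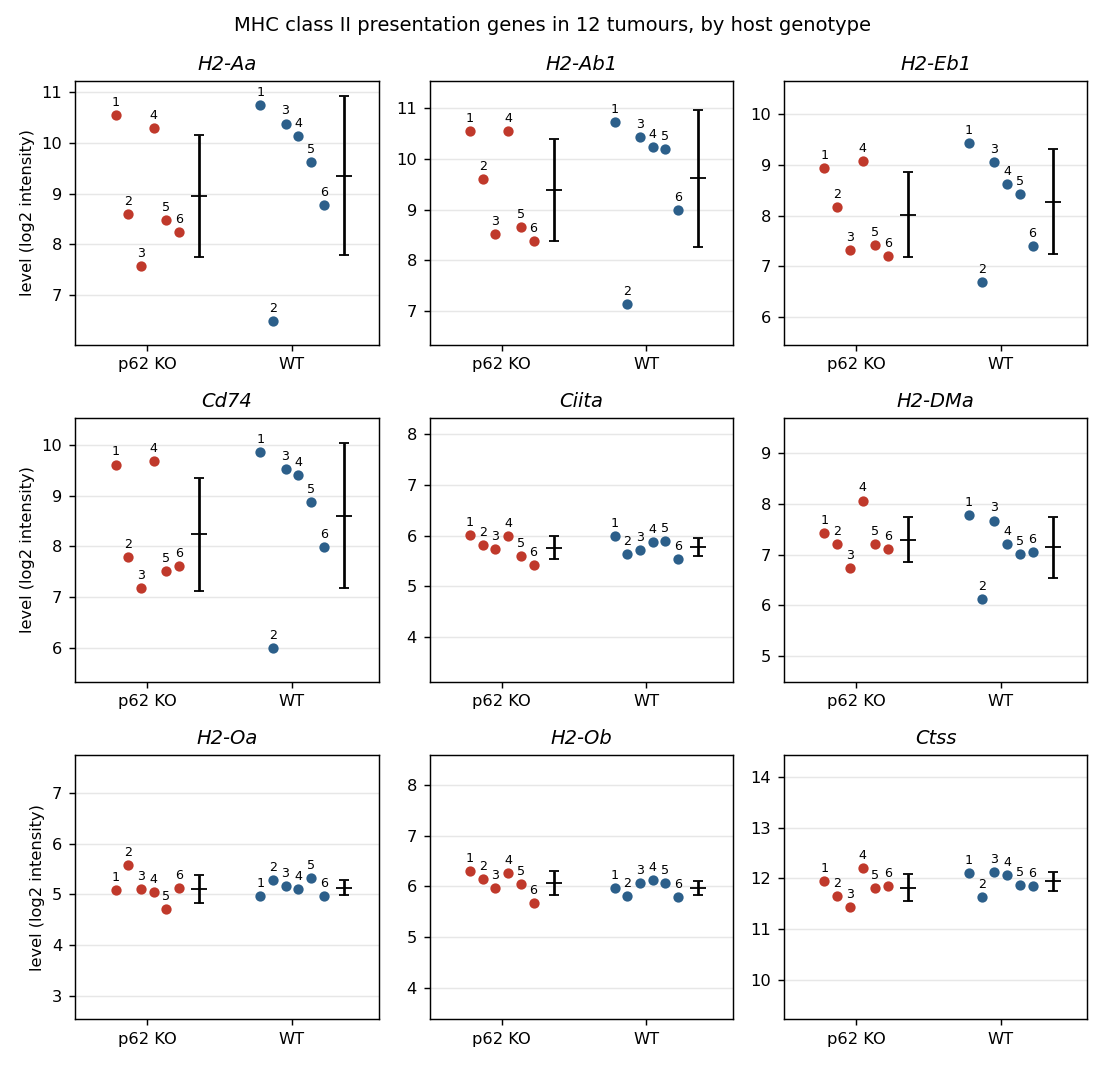
Level of each of the 9 genes (y axis, log2 intensity, each panel spanning the same height) in tumours of p62 KO hosts (red, left) and WT hosts (blue, right); numbers are mouse numbers, and bars are the mean and SD of 6 tumours. H2-Aa, H2-Ab1, H2-Eb1 and Cd74 spread widely in both host groups, with WT host 2 lowest and WT host 1 highest, while Ciita, H2-Oa, H2-Ob and Ctss stay within 0.88.

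The genes that act after assembly spread less. H2-DMa, the alpha chain of the peptide exchange factor H2-DM, stood at 6.73, 7.21 and 8.07 in tumours of KO hosts, against 6.11, 7.13 and 7.78 in WT hosts, a range of 1.95 or 3.87-fold. KO host 4 was highest and WT host 2 lowest. Ctss, the protease that cuts the invariant chain, lay between 11.44 and 12.21 in KO hosts, with a median of 11.83, and between 11.63 and 12.12 in WT hosts, with a median of 11.97. Its level exceeded that of at least 99.3% of probe sets on every array, and its range was 0.77 or 1.71-fold.

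H2-Ob and H2-Oa encode the 2 chains of H2-O, the inhibitor of H2-DM that is best known from B cells. H2-Ob stood at 5.67, 6.10 and 6.31 in KO hosts, against 5.80, 6.02 and 6.13 in WT hosts, a range of 0.64. H2-Oa stood at 4.71, 5.10 and 5.58 in KO hosts, against 4.96, 5.13 and 5.33 in WT hosts, a range of 0.88. In 3 tumours H2-Oa was below the lower quartile of its own array, and in all 12 it was below the median. How far either signal exceeds the array background is not known from these values.

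The regulator Ciita had a narrower range than the 4 structural genes and H2-DMa, and one close to those of H2-Ob, Ctss and H2-Oa. It stood at 5.42, 5.78 and 6.01 in tumours of KO hosts, against 5.54, 5.79 and 5.99 in tumours of WT hosts, a range of 0.59 or 1.51-fold, and 14553 genes had a larger one. Its level lay between the lower quartile and the median of the array in all 12 tumours. Whether its low signal narrows its range was not tested.

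The 4 structural genes, H2-Aa, H2-Ab1, H2-Eb1 and Cd74, varied together from tumour to tumour. Over the 12 tumours their 6 pairwise correlations (Pearson r) lay between 0.95 and 0.99. They lay between 0.93 and 1.00 within the 6 tumours of KO hosts and between 0.96 and 1.00 within the 6 of WT hosts. With the same 4 genes, H2-DMa had r of 0.85 to 0.87, Ctss 0.75 to 0.86, Ciita 0.67 to 0.80 and H2-Ob 0.62 to 0.71. H2-Oa stood apart, at -0.18 to 0.00. The points share their arrays, and the genes were listed with this pattern known.

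**Figure D2:**
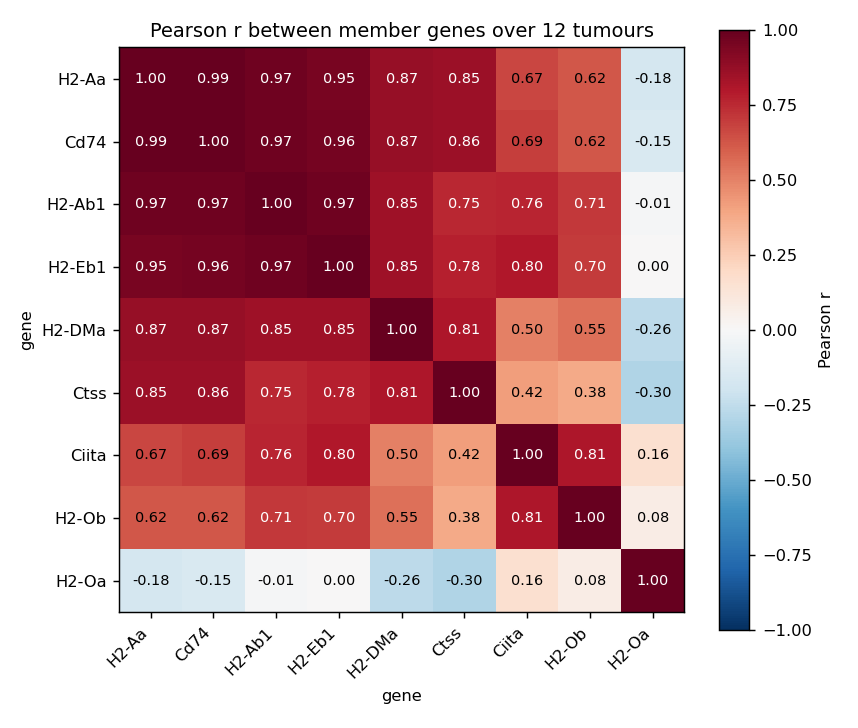
Pearson r between the 9 genes (both axes) over the 12 tumours, with colour from -1 (blue) to 1 (red) and the value in each cell. The 4 structural genes form a block of 0.95 to 0.99, H2-DMa and Ctss join it, Ciita and H2-Ob pair at 0.81, and H2-Oa follows none of them.

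For each step of 1 in the mean log2 level of the 4 structural genes, H2-Aa changed by 1.16, Cd74 by 1.07, H2-Ab1 by 0.99 and H2-Eb1 by 0.78. The same step went with 0.38 in H2-DMa, 0.16 in Ctss, 0.12 in Ciita, 0.11 in H2-Ob and -0.02 in H2-Oa. These slopes are across tumours, and the 4 structural genes are part of the mean they are set against.

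Over the 12 tumours Ciita had r of 0.81 and Spearman's rho of 0.74 with H2-Ob. It also varied with H2-Eb1 (r = 0.80, rho = 0.76), H2-Ab1 (r = 0.76, rho = 0.80), Cd74 (r = 0.69, rho = 0.72) and H2-Aa (r = 0.67, rho = 0.71). The order of these 5 genes depended on the measure and on the tumours included. H2-DMa (r = 0.50, rho = 0.55) and Ctss (r = 0.42, rho = 0.51) were less like it, and H2-Oa had r = 0.16 and rho = -0.01. Of the 8 other members, 5 reached r of 0.6, against 1.04% of the 19928 genes outside the list. Nothing is read from that share either, since the co-variation with Ciita was known when the list was made.

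Within the tumours of KO hosts, r with Ciita was 0.93 for H2-Ob, 0.91 for H2-Ab1 and H2-Eb1, 0.79 for Cd74 and 0.75 for H2-Aa. Within those of WT hosts it was 0.69 for H2-Ob and H2-Ab1, 0.75 for H2-Eb1, 0.66 for Cd74 and 0.64 for H2-Aa. Whether the groups differ in this was not tested. Without KO host 6 and WT host 6, the 2 tumours farthest from the median of Ciita, r was 0.62 for H2-Ob and 0.73 to 0.78 for the 4 structural genes.

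Part of the scatter around Ciita coincides with the arrays. KO hosts 2 and 3 and WT hosts 2 and 5 had the narrowest spread of signal, with interquartile ranges of 2.15 to 2.59, against 2.70 to 2.95 on the other 8 arrays. Over those 8 tumours, r with Ciita was 0.91 for H2-Aa, 0.92 for H2-Ab1, 0.90 for H2-Eb1 and Cd74 and 0.82 for H2-Ob. Over the same tumours it was 0.71 for H2-DMa, 0.72 for Ctss and 0.17 for H2-Oa, so that H2-DMa and Ctss were also closer to Ciita there. Array spread itself had r of 0.76 with Ctss, 0.47 with H2-DMa, 0.43 with H2-Aa, 0.22 with H2-Ab1, -0.18 with Ciita and -0.55 with H2-Oa over all 12 tumours. Its part in these relations was not tested.

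**Figure D3:**
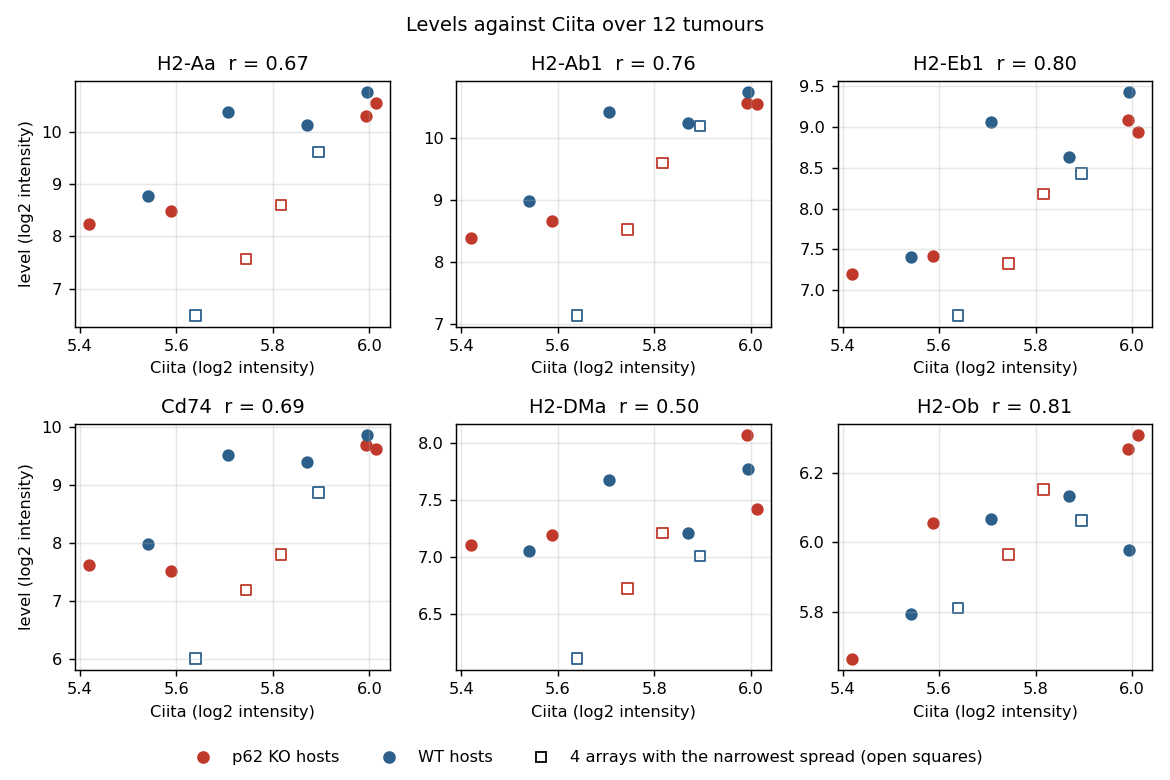
Level of 6 genes (y axes, log2 intensity) against Ciita (x axes, log2 intensity) in tumours of p62 KO hosts (red) and WT hosts (blue); open squares are the 4 arrays with the narrowest spread, and r is over 12 tumours. KO hosts 1 and 4 and WT host 1 are at the upper right for the 4 structural genes. WT host 2, an open square, is lowest for them, at a Ciita level of 5.64, below the median of 5.78.

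None of the 9 genes differed between tumours of p62 KO and WT hosts by limma's test. The level of H2-Aa was 8.95 ± 1.20 in KO hosts and 9.36 ± 1.57 in WT hosts (mean and SD, n = 6 tumours each). The difference, KO minus WT, was -0.40 (SE 0.69, 95% interval -1.90 to 1.09, adjusted p = 0.994). H2-Ab1 averaged 9.38 ± 1.00 in KO hosts and 9.62 ± 1.35 in WT hosts, a difference of -0.24 with an interval of -1.52 to 1.04. H2-Eb1 differed by -0.25 (-1.27 to 0.77) and Cd74 by -0.37 (-1.74 to 1.01). With this spread between tumours of 1 genotype, a 2-fold change in either direction is within the interval of H2-Aa, H2-Ab1 and Cd74.

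The intervals of the other genes were narrower. Ciita averaged 5.76 ± 0.23 in KO hosts and 5.77 ± 0.17 in WT hosts (SD, n = 6 each), a difference of -0.01 with a 95% interval of -0.27 to 0.24. H2-DMa differed by 0.15 (-0.43 to 0.72), H2-Ob by 0.09 (-0.15 to 0.34), H2-Oa by -0.02 (-0.30 to 0.25) and Ctss by -0.12 (-0.41 to 0.16). Adjusted p was 0.994 to 0.996 over the 9 genes.

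The adjusted p fell under 0.05 for 0 of the 9 genes and for 0.00355% of the 28192 probe sets, which is 1 probe set. An unadjusted p under 0.05 was reached by 0 of the 9, against 2.39% of all probe sets, and the smallest among the 9 was 0.356, for Ctss. The host groups overlapped in all 9, while 0.145% of all probe sets had groups that did not. The difference was below 0 in 7 of the 9 genes, against 42.8% of all probe sets. Those 7 are no independent signs, because the 4 structural genes move together between tumours. The median difference was -0.12 over the 9 genes and 0.02 over all probe sets.

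The size of these differences changed with the tumours included. Without WT host 2 the difference was -0.98 for H2-Aa, -0.74 for H2-Ab1, -0.57 for H2-Eb1 and -0.89 for Cd74, and H2-DMa turned to -0.06. Without WT host 1 the difference was -0.12 for H2-Aa and Cd74 and -0.02 for H2-Ab1 and H2-Eb1. Without KO hosts 2 and 3 it was 0.03 for H2-Aa, 0.0047 for Cd74, -0.08 for H2-Ab1 and -0.11 for H2-Eb1. With WT hosts 2 and 5 left out as well, it was -0.62 for H2-Aa, -0.56 for H2-Ab1, -0.47 for H2-Eb1 and -0.58 for Cd74. The adjusted p was 0.71 or more for each gene in every setting tried.

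**Figure D4:**
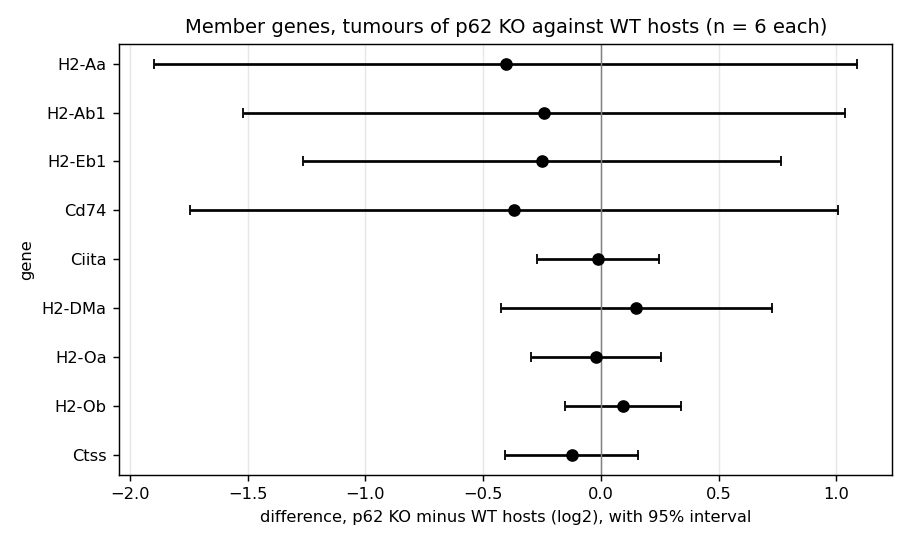
Difference in level between tumours of p62 KO and WT hosts (x axis, log2, KO minus WT, n = 6 each) for the 9 genes (y axis), with 95% intervals from limma. Every interval includes 0, and those of H2-Aa, H2-Ab1, H2-Eb1 and Cd74 are the widest, from -1.90 to 1.09 for H2-Aa.

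To set other genes beside the members, a class II score was formed per tumour as the mean of 6 of them (H2-Aa, H2-Ab1, H2-Eb1, Cd74, H2-DMa and Ciita), each scaled to a mean of 0 and an SD of 1. H2-Aa, H2-Ab1, H2-Eb1 and Cd74 each ranked 1st of 19932 genes by r with the mean of the other score genes (0.96 to 0.98). By the same measure H2-DMa ranked 37th, Ctss 65th, H2-Ob 161st, Ciita 211th and H2-Oa 10476th. The other score genes were left out of each ranking, so that they did not compete with the gene ranked. Nothing is read from these ranks, since the co-variation was known when the list was made. Among genes outside the list, r with the score was at least 0.7 for 0.984%, and the median r was -0.05.

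The gene most like the score was Plbd1, a phospholipase B-like protein of the lysosome (r = 0.97). Its range was 2.65, and it averaged 7.84 ± 0.63 in KO hosts and 8.03 ± 1.05 in WT hosts (SD, n = 6 each). Next came Fgl2, a fibrinogen-like immune regulator, and Cd72, a receptor of B cells and myeloid cells (r = 0.95 each), then AW112010, an interferon-inducible transcript (r = 0.95), and Nkg7, a granule protein of cytotoxic lymphocytes (r = 0.94). Cd2, an adhesion receptor of T and NK cells, and Gbp4, an interferon-inducible GTPase, had r of 0.92. Ptprc, the pan-leukocyte antigen CD45, and Klra2, a Ly49-family receptor, had 0.91, and Ly86, the partner of the toll-like receptor homologue RP105, had 0.90.

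The genes that ran most against the score were Slc10a6 (r = -0.89), Mars2, the mitochondrial methionyl-tRNA synthetase (-0.88), and Rfk, the riboflavin kinase (-0.86). Kctd10 had r of -0.85 and Plagl2 -0.84. Their ranges, 0.36 to 0.58, were below the 0.78 that was the median over all genes. Ciita alone had other close partners: Gm10791, a long noncoding RNA (r = 0.92), Wfdc12 (0.90), the T cell receptor signalling chains Cd3e (0.88) and Cd3g (0.86), and Cadm1, an adhesion molecule (0.87). Gm10791 is on chromosome 16, as is Ciita, but is not its neighbour in the RefSeq order.

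The mean level of the interferon gamma axis genes went with the score, while the single genes differed in how far they did. This mean over 15 measured genes had r of 0.92 with the score, 0.91 within KO hosts and 0.98 within WT hosts. It is a mean of unscaled levels, in which genes of wide range weigh most. Gene by gene, the median r was 0.60, with 14 positive and 1 negative. The receptor and kinase genes Ifngr2 (0.26), Jak1 (0.18) and Jak2 (0.34) were low, and Ifngr1 had 0.60. Of the 15, 5 had r of at least 0.7: the GTPases Gbp4 (0.92), Gbp3 (0.85) and Iigp1 (0.83) and the T cell attracting chemokines Cxcl9 (0.83) and Cxcl10 (0.70). Cxcl9 ranged over 2.80 between tumours, and Iigp1 over 2.45. The cytokine Ifng itself, at 5.18 to 5.77, had r of 0.27, the checkpoint ligand Cd274 0.14 and the class I coactivator Nlrc5 -0.25. The level of Ifng lay between the lower quartile and the median of the array in every tumour. Whether this low signal limits its r was not tested. Cxcl9, Cxcl10, Ifng, Ifngr1, Ifngr2, Jak1 and Jak2 are named outside the naming rule. None of the 15 passed the test between hosts, and their median difference was -0.11.

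Factors that recruit Ciita or control its gene were taken as a list of 15 measured genes. Their median range was 0.64, and 4 of them, Spi1, Nfyb, Irf1 and Creb1, ranged over 1.18 to 1.26. Of the 15, 0 had r of at least 0.7 with the score. Rfx5, the DNA-binding subunit of the X box complex, had r of 0.62, Irf1 0.60 and Spi1, the myeloid factor PU.1, 0.58. Rfxap, another subunit of that complex, had -0.32 and Socs1, an inhibitor of cytokine signalling, -0.21. Nfyb and Creb1, subunits of the promoter complex, are named after their values were seen. None passed the test between hosts, with a median difference of -0.01.

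Other genes of the class II pathway did not share the pattern as a group. Of 13 measured, 7 had a positive and 6 a negative r with the score, with a median of 0.06. Marchf1, the ubiquitin ligase that removes class II from the cell surface, had r of 0.89 and Cst3, the protease inhibitor cystatin C, 0.76, although each ranged over only 0.71 or less. Ifi30, the thiol reductase of antigen processing, had 0.34, Ctsl -0.36 and Marchf8, a relative of Marchf1, -0.37. None passed the test, with a median difference of 0.07.

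Of 7 measured genes of class I processing, Tap1 (r = 0.78), Psmb8 and Psmb9 (0.77 each) went with the score, and Tap2 (-0.07) and Nlrc5 (-0.25) did not. Over these 7 the ranges, 0.40 to 1.57, were below those of the 4 structural class II genes. The list also held H2-K1 and H2-D1, the class I heavy chain genes, which have no value here. Among 6 co-stimulatory ligands, Icosl (0.83) and Cd86 (0.79) had the highest r, and Tnfsf9 had 0.30, Cd80 0.07 and Tnfsf4 -0.17. Neither list held a gene that passed the test between hosts, and their median differences were 0.09 and 0.00.

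Markers of cells that could hold class II were set beside the score in the same way. The mean of the 8 pan-leukocyte genes lay between 9.08 and 9.87 in KO hosts and between 8.92 and 9.83 in WT hosts. It had r of 0.78 with the score, 0.54 within KO hosts, 0.95 within WT hosts and 0.61 over the 8 tumours with wider arrays. All 8 genes had a positive r, led by Ptprc (0.91), Cd52 (0.84) and Fcer1g (0.74). Coro1a (0.50) and Cd53 (0.52) were the lowest. The mean of this list ranged over 0.95 and Ptprc over 1.31, against 4.27 for H2-Aa.

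The 14 macrophage markers averaged 8.65 to 9.29 per tumour in KO hosts and 8.52 to 9.24 in WT hosts, with r of 0.68 between their mean and the score (0.56 within KO hosts and 0.83 within WT hosts). Without the 4 arrays of narrowest spread it was 0.29. Aif1 (0.86), Ms4a7 (0.79) and Fcgr1 (0.74) were the most like it, while Cd68 (-0.10) and Cd14 (0.03) were not. The 12 dendritic cell markers averaged 5.49 to 5.87 in KO hosts and 5.46 to 5.89 in WT hosts, with r of 0.43. That value was -0.08 within KO hosts, 0.81 within WT hosts and 0.62 over the 8 tumours with wider arrays, and whether the host groups differ in it was not tested. Itgax, the integrin CD11c, had 0.78, Xcr1 0.59 and Cd209a 0.56, against -0.53 for the transcription factor Zbtb46 and -0.25 for Clec10a.

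The 9 B cell markers averaged 5.31 to 5.76 in KO hosts and 5.20 to 5.45 in WT hosts, with r of -0.06. It was -0.22 within KO hosts, 0.31 within WT hosts and 0.53 over the 8 tumours with wider arrays. Cd79b (0.42) and Cd22 (0.28) were highest, then Pax5 (0.16), and Cr2 (-0.28) and Cd37 (-0.26) lowest. Cd79a, a chain of the B cell receptor complex named after its values were seen, averaged 5.05 ± 0.24 in KO hosts and 4.42 ± 0.20 in WT hosts (SD, n = 6 each). It lay between 4.24 and 5.24, against lower quartiles of 4.85 to 5.36 on the arrays, and how far it exceeds the array background is not known. Its difference of 0.63 (95% interval 0.36 to 0.90, limma unadjusted p = 0.000223) did not pass after adjustment (adjusted p = 0.994). Of the 9 B cell markers, 8 had a difference above 0 and 1 below, against 42.8% of all probe sets below 0. Their median difference was 0.10, and only Cd79a had an unadjusted p under 0.05 by limma's test. Nothing is read from the count of directions.

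The 9 markers of CD4 T cells averaged 5.57 to 5.93 in KO hosts and 5.56 to 5.98 in WT hosts, with r of 0.48 with the score and 0.77 with Ciita. The r with the score was 0.29 within KO hosts, 0.65 within WT hosts and 0.88 over the 8 tumours with wider arrays. Cd3g (0.85), Cd3e (0.71) and Cd3d (0.59) were most like the score, and Lat (-0.09) and Foxp3 (-0.08) least. Ctla4 (0.19), Cd28 (0.15), Cd4 itself (0.01) and Icos (-0.06) lay between and are named outside the naming rule. The level of Cd3d, 3.84 to 4.43, was below the lower quartile of every array (4.85 to 5.36).

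Fibroblast markers averaged 9.01 to 9.70 in KO hosts and 9.29 to 9.65 in WT hosts, with r of 0.53. Fap (0.65), Col1a2 (0.53) and Pdgfrb (0.44) were nearest, and Pdgfra (0.04) and Thy1 (0.06) farthest. The 10 epithelial markers averaged 5.93 to 6.43 in KO hosts and 5.88 to 6.21 in WT hosts, with r of -0.54 (-0.35 over the 8 tumours with wider arrays), and all 10 had a negative r, from Epcam (-0.02), Krt8 and Krt18 (-0.08 each) to Cldn3 (-0.59) and Krt19 (-0.66). Among these epithelial markers, Krt8 stood at 7.76 to 8.65, above every array's median (6.21 to 6.44). Krt18, Cdh1, Cldn7 and Krt5, at 5.03 to 6.36, were below their array's median in every tumour. Krt14, Krt19 and Cldn4 were above it in some tumours and below it in others. Cldn3 was below it in every tumour except that of WT host 2, where it stood at 6.275 against a median of 6.274. Epcam, at 4.32 to 5.16, was near or below the lower quartiles. None of the markers in these 7 lists passed the test between hosts. The part of any cell type in the class II levels was not tested.

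**Figure D5:**
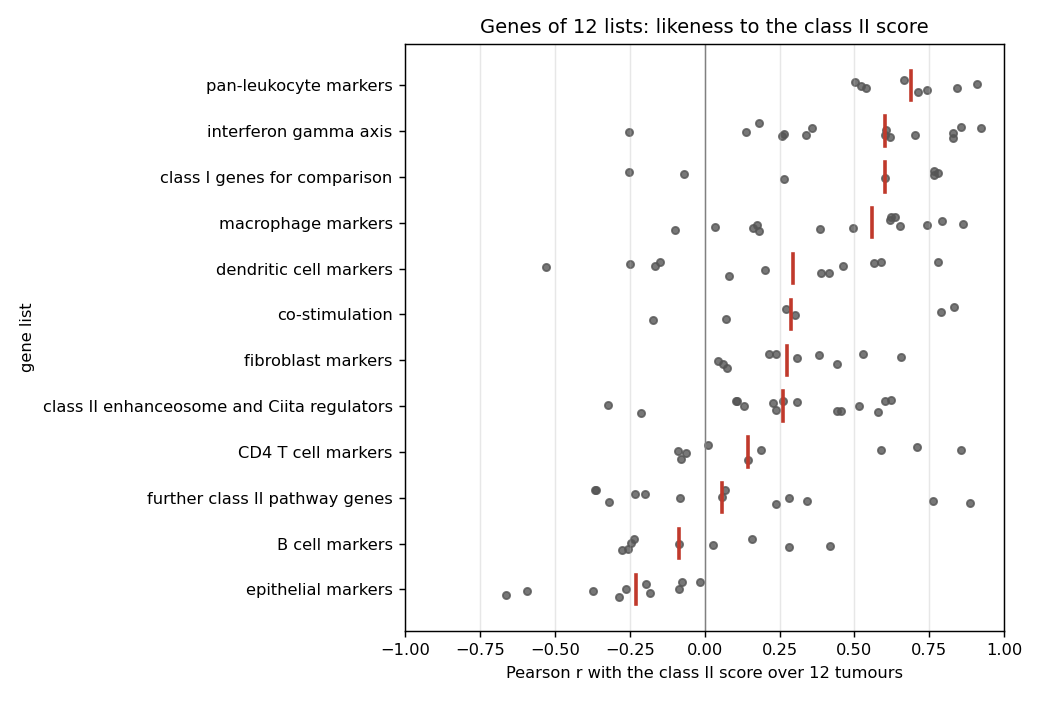
Pearson r of each measured gene with the class II score over 12 tumours (x axis), by gene list (y axis); red bars are medians. Pan-leukocyte genes (median 0.69), the interferon gamma axis and class I genes (0.60 each) and macrophage markers (0.56) lie highest, and B cell (-0.09) and epithelial markers (-0.23) lowest over these 12 tumours.

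Over the whole series, pairwise correlations between arrays ran from 0.93 to 0.99, and the class II score had r of 0.33 with the first principal component, which held 58.5% of the variance. Sqstm1 averaged 8.73 ± 0.39 in KO hosts and 8.89 ± 0.23 in WT hosts (SD, n = 6 each, limma adjusted p = 0.994). Since the injected cells carry an intact copy, this level is no check of host genotype.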

How the data were processed

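RNA of 12 tumours was measured on 1 array each. Each deposited value is the log2 intensity of a probe set. RMA is the authors' method per the submitters' processing notes, with no version given. The table had 34760 rows. Its 6568 rows of lowest identifiers carry no gene and were taken as controls, which left 28192 probe sets, 21640 of them with 1 symbol, 1321 with several and 5231 with none. Updating symbols by Entrez identifier changed 0. The test between host groups was that of limma 3.58.1 (R 4.3.3; lmFit and eBayes), two-sided and without covariates. Its p-values were adjusted by Benjamini-Hochberg over all probe sets, with 0.05 as threshold. The fit was tested on simulated data, drawn independently for each probe set and tumour. Those data held no array effects shared between probe sets, so that the check does not cover the differences in array spread. Precision is limited by the number of arrays. Correlations are Pearson's r or Spearman's rho over tumours, without p.

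The members and lists were chosen with earlier results of these data known. Named genes are the members, the 10 most and 5 least like the class II score, the 5 most like Ciita, and per list the 3 with the highest and 2 with the lowest r. The score was set to hold 7 genes and holds 6, as H2-DMb1 has no value. Alternatives were other normalizations and fits, a filter on dim probe sets, a replicate block and the omission of tumours. The mouse numbers do not pair the tumours by any label.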

Additional observations from a re-analysis of the deposited data

How the results depend on the processing

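In each of the 23 alternative fits 0 of the measured member genes were called, and the smallest adjusted p of any member was 0.711, for H2-Oa. The filter on dim probe sets removed Ciita, H2-Oa and H2-Ob, so that it has no value for them. Over all probe sets limma called 1 and, in the leave-outs of single tumours, 0 to 1. It called 0 without KO hosts 2 and 3 (2176 at an unadjusted p under 0.05), with the filter on dim probe sets (373), with the replicate block (524) and over all rows of the table (1021). Same-numbered tumours had deviations that correlated between -0.55 and 0.37, so that the numbers were not taken as pairs, and under the replicate block H2-Aa stayed at -0.40 and Cd74 at -0.37. Directions of small differences turned: without KO hosts 2 and 3, H2-Aa was at 0.034, Cd74 at 0.0047 and Ctss at 0.012, whereas with WT hosts 2 and 5 left out too they were at -0.62, -0.58 and -0.08. Over the leave-outs Ciita ran from -0.062 to 0.056, H2-DMa from -0.056 to 0.28 and H2-Oa from -0.12 to 0.059. The median range of the 9 genes was 1.95, between 1.34 and 1.95 over the leave-outs (lowest without WT host 2), and 1.01 without KO hosts 2 and 3 and WT hosts 2 and 5. The median r of the other 8 with Ciita was 0.68, between 0.63 and 0.74 over the leave-outs. It was 0.83 after quantile normalization, 0.81 with a common median per array and 0.86 without KO hosts 2 and 3 and WT hosts 2 and 5. The causes of these shifts were not tested.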

Other observations

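The 2 chains of 1 dimer did not keep a constant distance. H2-Ab1 minus H2-Aa, a difference of log2 levels, was 1.00 and 0.96 in KO hosts 2 and 3 and 0.65 and 0.58 in WT hosts 2 and 5, against -0.02 to 0.27 in the other 8 tumours. Those 4 arrays are the ones with the narrowest spread, and what that spread contributes was not tested. Cd74 minus H2-Aa stayed within 0.58 over all 12 tumours.

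Among the genes around the pathway, the lysosomal proteases Ctsd and Ctsl, named after their values were seen, differed by 0.32 each between tumours of KO and WT hosts without passing (limma adjusted p = 0.994). Ctsd averaged 10.97 ± 0.22 in KO hosts and 10.66 ± 0.11 in WT hosts (SD, n = 6 each), and Ctsd and Ctsl had r of -0.20 and -0.36 with the class II score. H2-Eb2, the neighbour of H2-Eb1, had r of -0.32 with the score and ranged over 1.09.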
